A study of Mus musculus with 16 samples.

Results

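Cecal epithelium of mice co-colonized with Bacteroides thetaiotaomicron and Bifidobacterium longum (Bt/Bl) was compared with that of mice carrying B. longum alone (Bl). Mouse 430 2.0 GeneChips were used. The comparison is between separate mice, not before and after B. thetaiotaomicron joined B. longum. Of the 16 samples of the series, 4 entered the comparison. Bt/Bl was hybridized to GeneChips 9132 and 9133, and Bl to 9134 and 9135. All animals were male, adult NMRI mice raised germ-free on a polysaccharide-rich chow, and each was gavaged once with its bacteria and killed 10 days later. Epithelium was removed from cecal sections by laser capture, and RNA of 4 mice was pooled for each state. Both GeneChips of a state were amplifications of that 1 pool, so their spread is technical and each test below compares a pool with a pool rather than mice with mice. GeneChips 9130 and 9443 of mice with B. thetaiotaomicron alone (Bt) are quoted beside some results as a description and did not enter the main tests. Germ-free mice did not enter the main tests either. The Bt and germ-free GeneChips entered only the median that sets the floor below and alternative fits given at the end. In a pooled epithelial RNA, fewer cells of a type and less RNA per cell cannot be told apart.

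B. thetaiotaomicron is a saccharolytic symbiont that degrades plant and host glycans, and B. longum is a bifidobacterium that also ferments plant polysaccharides. The gut epithelium answers colonization with secreted lectins of the Reg family, which bind bacterial cell walls and are made by enterocytes and Paneth cells. It also carries interferon-responsive genes. Interferons signal through Stat and Irf transcription factors, which bind interferon-stimulated response elements (ISREs) in promoters of genes such as the Ifit family, whose products bind viral RNA.

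A signal here is the deposited hybridization intensity of a probe set, a group of probes for 1 transcript. Lower signals were set to a floor of 583.1, the median of all values in the table, before log2 was taken. Probe sets above this value in the duplicates of Bt/Bl, of Bl or of each were kept, 20828 of 45101 in all, and through them 11242 of 18194 named genes. The lowest probe set inside this limit had a deciding signal of 583.2 and the highest outside it 583.1. A gene was called at an adjusted p under 0.05 in limma. A looser criterion, modelled on that of the study but without its detection calls, asked for a fold change whose 90% interval lay wholly beyond 2-fold and for signals that differed by more than 10. Genes that met it without being called are given by their values.

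Promoters of 5 genes are shown first. Reg3b, Ifit1 and Slfn4 are the genes called below, and Ifit3 and Rsad2 are partners of Ifit1 in the interferon response whose windows also hold the element. Each window runs from 250 bases before to 50 after the start of the gene in RefSeq (GRCm38.p6), written 5′ to 3′ along the strand of the gene. Capitals mark the ISRE core, GAAA followed by any 2 bases and GAAA, on either strand. Ifit1 lies at chr19:34640639-34640938, plus strand, Ifit3 at chr19:34583279-34583578, plus strand, Rsad2 at chr12:26456403-26456702, minus strand, Slfn4 at chr11:83174936-83175235, plus strand and Reg3b at chr6:78370635-78370934, plus strand.
Ifit1: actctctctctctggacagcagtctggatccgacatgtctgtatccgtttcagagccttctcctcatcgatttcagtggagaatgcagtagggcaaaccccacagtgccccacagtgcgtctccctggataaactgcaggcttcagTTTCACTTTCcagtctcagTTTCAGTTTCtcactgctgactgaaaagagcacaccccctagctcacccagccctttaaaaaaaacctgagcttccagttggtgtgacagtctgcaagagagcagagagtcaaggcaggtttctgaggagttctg
Ifit3: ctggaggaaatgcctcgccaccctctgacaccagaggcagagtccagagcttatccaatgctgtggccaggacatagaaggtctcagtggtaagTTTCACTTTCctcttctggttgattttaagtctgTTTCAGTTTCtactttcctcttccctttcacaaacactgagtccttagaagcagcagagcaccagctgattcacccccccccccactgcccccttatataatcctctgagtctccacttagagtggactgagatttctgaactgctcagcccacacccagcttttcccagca
Rsad2: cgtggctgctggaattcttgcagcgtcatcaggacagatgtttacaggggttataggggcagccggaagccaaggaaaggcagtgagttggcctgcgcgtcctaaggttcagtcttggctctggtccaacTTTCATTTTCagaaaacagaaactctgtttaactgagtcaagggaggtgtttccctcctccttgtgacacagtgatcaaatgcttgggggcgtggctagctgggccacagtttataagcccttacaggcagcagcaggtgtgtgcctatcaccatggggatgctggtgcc
Slfn4: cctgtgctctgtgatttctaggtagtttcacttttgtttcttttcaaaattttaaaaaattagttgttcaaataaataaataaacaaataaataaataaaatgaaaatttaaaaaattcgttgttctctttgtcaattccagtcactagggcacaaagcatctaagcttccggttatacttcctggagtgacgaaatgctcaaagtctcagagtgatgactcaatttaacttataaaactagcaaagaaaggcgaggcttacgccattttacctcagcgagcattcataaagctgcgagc
Reg3b: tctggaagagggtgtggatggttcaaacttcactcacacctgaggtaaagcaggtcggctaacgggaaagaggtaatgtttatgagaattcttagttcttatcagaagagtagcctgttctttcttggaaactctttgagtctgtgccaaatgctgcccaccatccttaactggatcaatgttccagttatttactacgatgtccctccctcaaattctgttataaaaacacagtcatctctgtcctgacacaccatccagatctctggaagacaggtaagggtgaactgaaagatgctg

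The core stood 2 times in the Ifit1 window, between positions -104 and -76 from the start, 2 times in that of Ifit3 and 1 time in that of Rsad2. The windows of Slfn4 and Reg3b held no such letters, nor did those of Ifit2 and Ifi47, which are not shown. Of 27025 genes with a promoter window, 3.99% had the core in at least 1 window, against 0 of 7 in the Reg family. The Ifit, interferon-stimulated, Schlafen and interferon-inducible GTPase lists held 71 genes together, of which 54 had a window, and the core stood in 28 of these 54 (51.9%). A window was at hand for 41 of the 52 tested members of those lists, and for 24 of the 32 whose Bt/Bl signals both lay above both Bl signals. Among these 41, the core stood in 11 of the 24 genes with higher signals and in 9 of the other 17. A match is a stretch of letters and was not tested for binding.

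At this threshold 3 genes, Reg3b, Ifit1 and Slfn4, were higher in Bt/Bl than in Bl, and none was lower. Reg3b, a secreted C-type lectin of antibacterial defence, was 59.6-fold higher. Ifit1, an RNA-binding antiviral protein, was 6.75-fold higher, and Slfn4, a Schlafen protein induced by interferon, 5.87-fold. These 3 were 0.0267% of the genes tested. In probe sets, limma called 4 of 20828 higher (0.0192%) and 0 lower, against 1036 (4.97%) and 1645 (7.90%) at an unadjusted p under 0.05. By the 90% bound, 23 probe sets were higher (0.110%) and 11 lower (0.0528%). By the brightest probe set of each gene, this bound was passed by 16 genes that were higher (0.142%) and 7 that were lower (0.0623%). Both Bt/Bl signals lay above both Bl signals in 20.9% of probe sets and below them in 26.3%. The median log2 difference was -0.05 over probe sets and -0.01 over genes.

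These counts rest on the floor and on every GeneChip. With GeneChip 9132, 9133, 9134 or 9135 left out, 3011, 2361, 128 and 630 probe sets were called higher and 21, 7, 4702 and 6617 lower, of which 2879, 2260, 4369 and 5883 had no spread left because the remaining duplicates both lay at the floor. In such a fit the lone GeneChip of a state is assumed to vary like those of the other state, and the calls at the floor loosen the adjusted threshold. Reg3b, Ifit1 and Slfn4 were among the calls of each fit, which under these conditions is no evidence of stability. Scaling the GeneChips to a common median moved the median of all probe sets to 0.231 and the split by the bound from 23 higher and 11 lower to 43 and 5.

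**Figure D1:**
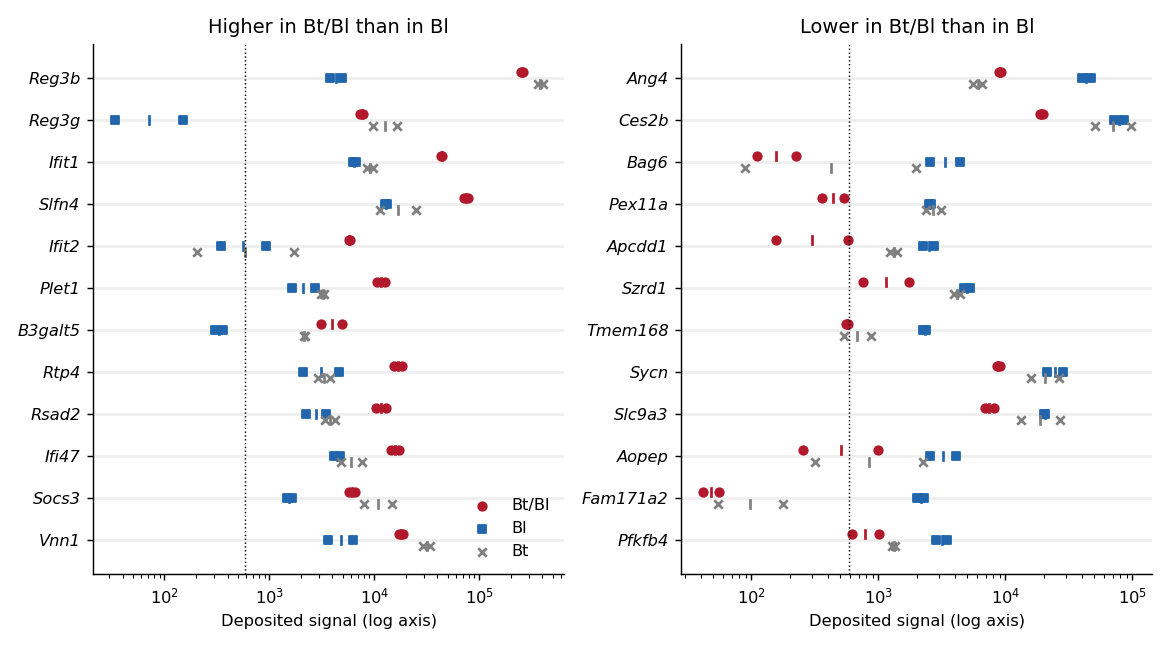
Deposited signals on a log axis of the 12 genes with the largest positive and the 12 with the largest negative difference, ranked by the confidence bound; points are single GeneChips of Bt/Bl (circles), Bl (squares) and Bt (crosses), short bars are geometric means and the dotted line is the floor of 583.1. Signals of Bt/Bl and Bl do not overlap in any of these 24 genes, and Reg3b lies at 252956 and 263622 in Bt/Bl against 3803 and 4930 in Bl.

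Reg3b had signals of 252956 and 263622 in Bt/Bl and of 3803 and 4930 in Bl. The states were far apart and the duplicates close together, giving a log2 difference of 5.90 (standard error 0.21, n = 2 amplifications per state, adjusted p = 0.0022 by limma). Its other probe set read 37781 and 41154 against 1221 and 1016, a log2 difference of 5.15 (standard error 0.25, adjusted p = 0.0067 by limma). In Bt alone Reg3b stood at 405724 and 362467, above both Bt/Bl GeneChips.

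Reg3g, the closest relative of Reg3b and a lectin that kills Gram-positive bacteria, read 7321 and 7842 in Bt/Bl. In Bl it lay under the floor, at 152 and 33.6, so it passed the filter through Bt/Bl alone and the ratio is at least 13-fold. The log2 difference of 3.70 (standard error 0.41) had an adjusted p of 0.2177 by limma and was not called, although its bound lay at 7.54-fold. Bt had 16629 and 9676. Reg4, a family member of enteroendocrine and goblet cells, had 18400 and 18030 in Bt/Bl against 12211 and 13027 in Bl, a log2 difference of 0.53 (standard error 0.20, adjusted p = 0.3755 by limma).

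Of the 7 Reg genes on the GeneChip 5 were tested, and 3 of these had both Bt/Bl signals above both Bl signals, where 21.5% of all genes did. The median log2 difference of the 5 was 0.53, or 3.70 with the filter raised to the 75th percentile. Only Reg3b among them was called.

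A separate GeneChip measured the same states. The custom GlycoGeneChip, built around genes of glycan metabolism and lectins, held 708 mouse probe sets, of which 379 were tested over a floor of 860.3. By limma 2 were called higher (0.528%) and 0 lower, and both were probe sets of Reg3b. The brighter read 110988 and 123018 in Bt/Bl and 3599 and 1194 in Bl, a log2 difference of 5.82 (standard error 0.47, adjusted p = 7.77e-04 by limma). The other read 12641 and 15209 against 139 and 115, with both Bl values under the floor. The labels do not say whether these were the RNA pools of the Mouse 430 2.0, so the GlycoGeneChip is not independent evidence of a difference between mice. Gne, which encodes the enzyme that starts sialic acid synthesis, was singled out after its values were seen. It read 6334 and 6775 in Bt/Bl and 1577 and 1659 in Bl there, 1 of 3 probe sets past the bound (0.792%), with an adjusted p of 0.2329 by limma.

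Interferon-responsive genes had higher signals in the co-colonized epithelium in many of their members, and 2 of them passed the threshold. Ifit1 read 43357 and 44125 in Bt/Bl and 6239 and 6728 in Bl, a log2 difference of 2.76 (standard error 0.19, adjusted p = 0.0409 by limma). Its duplicates were tight, and the states were well separated. Slfn4 read 78811 and 71999 against 13119 and 12564, a log2 difference of 2.55 (standard error 0.19, adjusted p = 0.0409 by limma). Both passed narrowly, and both were lost after median scaling of the GeneChips (adjusted p = 0.1301 for each).

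All 5 tested Ifit genes had both Bt/Bl signals above both Bl signals, where 21.5% of all genes did. Their median log2 difference was 1.68. Ifit2, which promotes apoptosis of infected cells, read 5826 and 5740 in Bt/Bl and 929 and 344 in Bl (log2 difference 2.97, standard error 0.45, adjusted p = 0.3755 by limma). Its Bl GeneChips disagreed with each other, 1 of them lying under the floor. Ifit3, the partner that stabilises Ifit1, read 2282 and 1527 against 549 and 518, at least 3.2-fold. Both Bl signals of Ifit3 lay under the floor, so it passed the filter through Bt/Bl alone, as Ifit2 did. For such genes the filter excluded lower signals without overlap. Ifit1bl1, a sequence relative of Ifit1, had high signals in both states, 105547 and 109044 against 43300 and 40984 (log2 difference 1.35, standard error 0.19). Ifit1 alone of the 5 was called.

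Of 41 other interferon-stimulated genes on the GeneChip 35 were tested. Both Bt/Bl signals lay above both Bl signals in 22 and below them in 3, where 21.5% and 23.5% of all genes tested did so. At an unadjusted p under 0.05 there were 16 higher and 0 lower (4.71% and 6.79% over all genes), and 0 were called. Their median log2 difference was 0.78.

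Rtp4, a chaperone for G-protein-coupled receptors that interferon induces, read 18560 and 15276 in Bt/Bl and 4569 and 2074 in Bl (log2 difference 2.45, standard error 0.41). Rsad2, also named viperin, which makes a chain-terminating nucleotide, read 12983 and 10428 against 2257 and 3446 (log2 difference 2.06, standard error 0.32). Oasl2, of the 2′-5′ oligoadenylate synthetase family, read 2139 and 3673 against 153 and 731. These and the following genes are separated between the states but miss the adjusted threshold, each at 0.3755 or above. Zbp1, a sensor of Z-form nucleic acid, read 2933 and 3856 in Bt/Bl and 956 and 863 in Bl, and Phf11d read 4631 and 3484 against 410 and 1933. Oasl2 and Phf11d passed the filter through Bt/Bl alone. The remaining probe sets of Rsad2 had log2 differences of 0.51 and 0.42. The probe set given to both Isg15 and Gm9706 read 4689 and 4892 against 196 and 213, at least 8.21-fold, and cannot be credited to either symbol.

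Among 8 tested interferon-inducible GTPases, which attack the vacuoles of intracellular pathogens, 4 were higher without overlap and 0 lower, where 21.5% and 23.5% of all genes were. Their median log2 difference was 0.58, or 1.31 with the filter at the 75th percentile. Ifi47 read 14472 and 17389 in Bt/Bl against 4714 and 4123 in Bl (log2 difference 1.85, standard error 0.24), Igtp 4940 and 2488 against 1296 and 1439, and Irgm2 1945 and 2847 against 715 and 1357. Gbp7, of the guanylate-binding proteins, differed by 0.82. Genes of MHC class I antigen presentation were mixed. Of 14 tested, 4 were higher and 3 lower without overlap, against the same shares of all genes, with a median of 0.13 (range -1.27 to 1.43).

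In the Schlafen family the members differed in direction. Slfn2, a regulator of lymphocyte quiescence, read 415 and 499 in Bt/Bl, under the floor, and 1322 and 981 in Bl. The median over 4 tested members was 0.15, or -0.15 without GeneChip 9135 and 0.45 without 9134, and Slfn4 carried the positive end of the family.

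**Figure D2:**
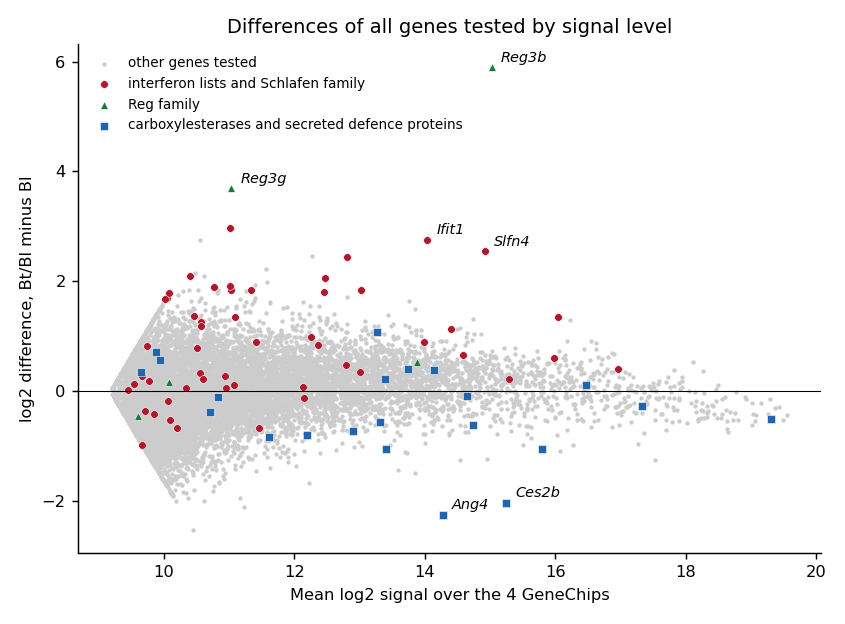
Each point is 1 of 11242 genes by its brightest probe set, with the mean log2 signal over the 4 GeneChips on the horizontal axis and the log2 difference, Bt/Bl minus Bl, on the vertical axis; interferon and Schlafen lists are circles, Reg genes triangles, carboxylesterases and secreted defence proteins squares. Reg3b at 5.90 stands above all others, Ifit1 (2.76) and Slfn4 (2.55) lie at high signal, and Ang4 (-2.25) and Ces2b (-2.03) lie lowest among bright genes.

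Stat and Irf factors and interferon receptors act upstream of these targets. Over 20 tested Stat, Irf, Socs and interferon receptor genes the median log2 difference was 0.25, with 6 higher and 1 lower without overlap, where 21.5% and 23.5% of all genes were. It was 0.41, 0.18, 0.46 and 0.06 without GeneChips 9132, 9133, 9134 and 9135. Socs3, which feeds back on cytokine receptors and Stat3, read 6534 and 5709 in Bt/Bl and 1628 and 1476 in Bl (log2 difference 1.98, standard error 0.33, adjusted p = 0.3755 by limma). Bt was higher still, at 14698 and 7905. Stat6 read 2007 and 1078 against 820 and 429, with wide gaps between the duplicates of each state (log2 difference 1.09, standard error 0.51). It passed the filter through Bt/Bl alone.

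Signals in Bt separated some of these genes from others. Ifit1 read 9757 and 8443 in Bt, near its Bl values and far under 43357 and 44125 in Bt/Bl. Slfn4 in Bt read 24936 and 11276, its GeneChips disagreeing, and neither reached Bt/Bl. Of the 22 other interferon-stimulated genes with non-overlapping higher signals in Bt/Bl than Bl, 17 (77.3%) also had both Bt/Bl signals above both Bt signals, as did 4 of 5 Ifit genes and 3 of 4 GTPases, against 48.9% of the 2414 such genes overall. Reg3b, Reg3g, Socs3 and Vnn1 had their highest signals in Bt. Vnn1, a pantetheinase on the surface of epithelial cells, read 17367 and 18804 in Bt/Bl, 3654 and 6296 in Bl and 33794 and 29321 in Bt (log2 difference from Bl 1.91, standard error 0.31). Its brightest probe set had 1.64. No test of Bt was made here.

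**Figure D3:**
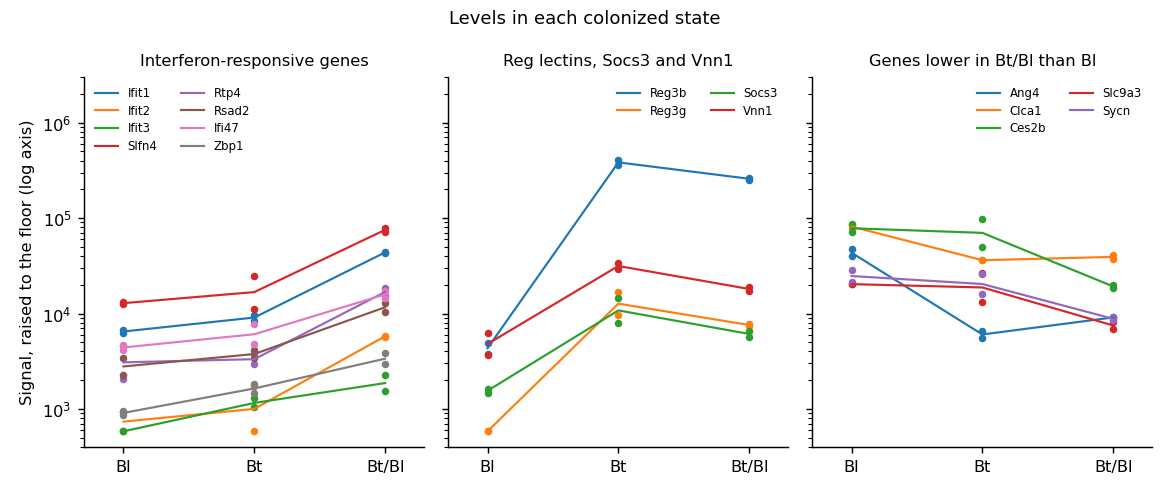
Signals raised to the floor, on a log axis, of named genes in Bl, Bt and Bt/Bl; points are single GeneChips and lines join geometric means. Ifit1 goes from 6239 and 6728 in Bl to 9757 and 8443 in Bt and 43357 and 44125 in Bt/Bl, Reg3b is highest in Bt at 405724 and 362467, and Ang4 is highest in Bl at 46895 and 40107.

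Plet1, a surface protein of epithelial progenitors, read 10593 and 12633 in Bt/Bl and 2703 and 1637 in Bl (log2 difference 2.46, standard error 0.34, adjusted p = 0.3755 by limma), and Bt stayed low at 3140 and 3336. Its other probe sets failed the filter and overlapped, at 1964 and 408 against 1438 and 367, and 566 and 316 against 117 and 816. Its list, crypt stem and progenitor markers, was mixed. Of 14 tested, 5 were higher and 4 lower without overlap, where 21.5% and 23.5% of all genes were. The list median was 0.39 (range -1.38 to 2.46). B3galt5, a galactosyltransferase of mucosal glycans, read 4930 and 3129 against 304 and 363, at least 6.74-fold, while its other tested probe set had a log2 difference of -0.56. Muc4, a membrane mucin, read 5938 and 7952 against 3870 and 3102 (log2 difference 0.99, standard error 0.30), and its other tested probe set had 0.18. Cd14, a co-receptor for lipopolysaccharide, read 17703 and 16666 against 6253 and 9096 (log2 difference 1.19, standard error 0.26). None of these was called.

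Ranked by the confidence bound, lower signals in Bt/Bl than in Bl were led by Ang4 and Ces2b. Bag6, under the floor in Bt/Bl, had a larger log2 difference, -2.52. Ang4, a microbicidal ribonuclease of Paneth and goblet cells, read 9287 and 8912 in Bt/Bl and 46895 and 40107 in Bl, a log2 difference of -2.25 (standard error 0.20, adjusted p = 0.0986 by limma). The states were separated widely and the value missed the threshold. Its other probe set had -1.22, and Bt lay low too, at 6570 and 5535. Ces2b, a carboxylesterase of the intestinal lining, read 19733 and 18699 against 85753 and 71430 (log2 difference -2.03, standard error 0.20, adjusted p = 0.1300 by limma). Unlike Ang4 it was high in Bt, at 97380 and 50344.

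Among secreted goblet and Paneth proteins 14 were tested, 2 higher and 7 lower without overlap, where 21.5% and 23.5% of all genes were. Their median was -0.32, or -0.03 after scaling to a common median, -0.10 at a common 75th percentile, -0.16 without GeneChip 9132 and -0.18 without 9135. Clca1, a mucus-processing protease of goblet cells, read 37098 and 41467 against 85225 and 78138 (log2 difference -1.06, standard error 0.19). Lyz1, the lysozyme of Paneth cells, read 15634 and 13218 against 8081 and 5773 by its brightest probe set and 3852 and 4060 against 2194 and 1814 by another, while the third lay under the floor in Bt/Bl and had -0.58. Muc20, a membrane mucin, read 682 and 703 against 2030 and 1236.

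Of 8 tested intestinal carboxylesterases, which hydrolyse esters of lipids and drugs, 4 were lower without overlap and 1 higher, where 23.5% and 21.5% of all genes were. Their median was -0.33, or -0.03 after scaling to a common median and -0.11 at a common 75th percentile. It was -0.60, -0.17 and -0.55 without GeneChips 9132, 9133 and 9134, and -0.68 with the filter at the 75th percentile. Beside Ces2b, Ces1g read 7359 and 7700 in Bt/Bl and 11135 and 21670 in Bl, and Ces2a 3313 and 3825 against 6140 and 6286. All 4 that were lower lay below both Bt signals as well, as did 36.5% of the 2640 genes lower without overlap.

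Several groups of enzymes for xenobiotics and lipids had more members with non-overlapping lower signals than higher ones, and none was called. Genes of fatty acid oxidation and other PPAR targets did not. Of 24 tested, 7 were higher and 6 lower without overlap, against 21.5% and 23.5% of all genes, with a median of -0.07. Among 17 tested cytochrome P450 genes 7 were lower and 2 higher without overlap, and among 23 conjugation enzymes 10 and 3, where 23.5% and 21.5% of all genes were. The P450 median was -0.37, or -0.08 after scaling to a common median, -0.15 at a common 75th percentile and -0.24 without GeneChip 9135. That of the conjugation enzymes was -0.24, or 0.05, -0.02 and -0.14 under the same settings. Ephx2, a soluble epoxide hydrolase, read 3005 and 3243 against 6692 and 6582, Gsta3, a glutathione transferase, 533 and 612 against 1549 and 1147, and Cyp2d26 9758 and 9377 against 19107 and 14374. Aldh1a1, which makes retinoic acid, read 135014 and 111593 against 346492 and 246136 (log2 difference -1.25, standard error 0.27). Its list, aldo-keto reductases and aldehyde dehydrogenases, had a median of 0.00 over 17 tested (range -1.25 to 1.25). There 7 were lower and 2 higher without overlap, against the same shares of all genes. Of 13 tested apolipoprotein and lipid export genes 7 were lower and 2 higher without overlap, against the same shares of all genes. Their median was -0.35, or -0.06, -0.14 and -0.77 under those settings. Dgat1, an enzyme of triglyceride synthesis, read 4264 and 4279 against 7296 and 7945, and Apoc2 17266 and 15236 against 30867 and 24517. The metallothioneins Mt1 and Mt2 differed by -0.98 and -0.97. Over the 10 tested metallothioneins and zinc transporters the median was 0.04, with 2 lower and 0 higher without overlap, against the same shares of all genes.

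Slc9a3, the apical sodium/proton exchanger, read 6844 and 8193 in Bt/Bl and 20487 and 20141 in Bl (log2 difference -1.44, standard error 0.21, adjusted p = 0.3755 by limma). Sycn, syncollin, read 8511 and 9100 against 28531 and 21397, with -1.11 by its other probe set. Alpi, intestinal alkaline phosphatase, which detoxifies lipopolysaccharide, read 17155 and 17072 against 28745 and 27276 (log2 difference -0.71, standard error 0.19). Each was separated between the states.

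The remaining genes of the lower ranks were dim in Bt/Bl. Bag6, Pex11a, Apcdd1, Tmem168 and Fam171a2 lay under the floor on both Bt/Bl GeneChips and passed the filter through Bl alone. Their mean Bl signals on the log2 scale lay 5.75-fold, 4.39-fold, 4.28-fold, 3.97-fold and 3.7-fold above the floor. None of them was called. The brightest probe set of Pex11a, a peroxisomal membrane protein, lay above the floor and had a log2 difference of -1.02. Szrd1 differed by -2.11, Aopep by -2.07 and Pfkfb4 by -1.99. Other tested probe sets of these genes had -0.06 for Szrd1, 0.46 and -0.23 for Tmem168, and -0.09 and 0.73 for Aopep. Those of Apcdd1 had -1.82, -0.17 and -0.72.

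Of 35 tested cell cycle and replication genes, 16 were higher and 5 lower without overlap, where 21.5% and 23.5% of all genes were. At an unadjusted p under 0.05 there were 3 higher (4.71% of all genes), and limma called 0. Their median was 0.39, or 0.18 without GeneChip 9134. Mcm6, of the replicative helicase, read 4519 and 4956 in Bt/Bl and 1115 and 2052 in Bl (log2 difference 1.65, standard error 0.43), and Ccne1, cyclin E1, 3226 and 3181 against 1685 and 998. Over 38 oxidative phosphorylation and citric acid cycle genes the median was -0.16, with 3 higher and 14 lower without overlap, where 21.5% and 23.5% of all genes were. It turned to 0.14 after scaling to a common median and 0.06 at a common 75th percentile, and was -0.09 without GeneChip 9132, -0.24 without 9134 and -0.05 without 9135.

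A few further epithelial genes were not called. Ccl6, a chemokine, read 1967 and 2127 against 1664 and 1702, although Bt had 11919 and 10959. Ada, adenosine deaminase, differed by -0.10 (standard error 0.32) and Klk1, a kallikrein, by 0.21 (standard error 0.34). Pnliprp2, a lipase of the pancreatic type, read 1277 and 597 against 2192 and 2178. Fabp1, a fatty acid-binding protein, was too dim to test, at 500 and 516 against 385 and 979.

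**Figure D4:**
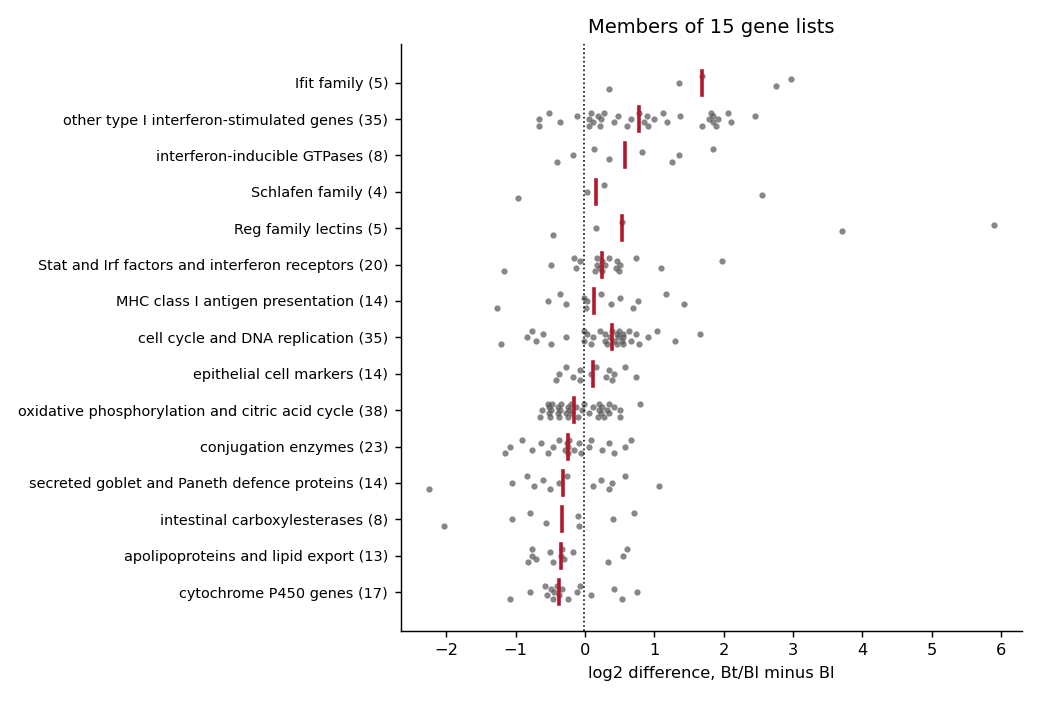
The log2 differences, Bt/Bl minus Bl, of the tested members of 15 gene lists, with the number tested in brackets, the list median as a red bar and the median of all genes, -0.01, as a dotted line. Among these 15 lists the Ifit family has the highest median, 1.68, and cytochrome P450 genes the lowest, -0.37. Lists not shown had lower medians, -0.64 for erythrocyte markers, -0.58 for T and natural killer cell markers and -0.54 for pancreatic exocrine genes.

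Other cell types and the quality of the GeneChips were examined. Median signals were 531.5 and 573.0 in Bt/Bl and 759.0 and 604.2 in Bl, and the duplicates correlated at 0.95 and 0.89 across tested probe sets after flooring and at 0.74 and 0.67 across all probe sets without a floor, which are not independent replicates. GeneChip 9134 had the highest median signal. Signal of the 3′ over the 5′ control probe set was 15.6 and 12.6 in Bt/Bl and 10.4 and 17.6 in Bl for Gapdh. For actin it was 32.9 and 26.1 against 28.4 and 21.4. How far this bears on genes whose probe sets differ was not tested. Epithelial markers were bright in both states (summed signals 1496481 and 1529102 against 1860172 and 1604249). T and natural killer cell markers summed to 7834 and 5853 against 13356 and 10330, and 5 of 16 were tested. Cd8a read 322 and 598 against 3392 and 1400, while Cd3g lay under the floor on all 4 GeneChips. Macrophage, dendritic and neutrophil markers summed to 39320 and 35711 against 27393 and 23024 with 9 of 21 tested, and those of B and plasma cells to 63818 and 50800 against 42411 and 37930 with 9 of 14 tested. The tested B and plasma cell markers nevertheless had a median log2 difference of -0.25 (range -0.68 to 0.86). Without overlap 3 of them were higher and 0 lower, where 21.5% and 23.5% of all genes were. Jchain, of secreted antibodies, was among the higher, at 6182 and 5885 against 3497 and 3590. Medians were 0.14 for fibroblast and stroma markers (12 tested), -0.13 for smooth muscle (4), -0.32 for endothelial (4) and -0.64 for erythrocyte markers (2). They were -0.20 for neuron and glia markers (3), -0.54 for pancreatic exocrine genes (7) and 0.55 for the 1 mast cell marker tested. Xist, expressed from the inactive X chromosome, read 7541 and 11176 against 4405 and 3753 beside Y-linked Eif2s3y at 5657 and 4401 against 3201 and 4872, in pools described as male. The part of these differences in the results was not tested.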

How the data were processed

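The authors made the deposited intensities with MAS5, scaled so that the trimmed mean of each GeneChip lies near 1500. The deposited tables hold no detection calls, and the study's own analysis used dChip. Here signals were floored and compared on the log2 scale by limma 3.58.1 under R 4.3.3, with lmFit and a trended eBayes, on the 4 GeneChips of Bt/Bl and Bl (2 residual degrees of freedom). P-values were adjusted by the Benjamini-Hochberg method over 20828 probe sets. Of 45101 probe sets 34958 had 1 symbol, 932 several and 9211 none listed. A list member is represented by its brightest probe set. Named are the 12 largest differences in each direction, by the bound of any probe set of a gene, called genes, members of each list described and a short list of further epithelial genes. The members and the 49 lists were chosen with earlier results of these data known. The floor, filter, limma fit and bound of the main comparison were tested on simulated data. There the spread depended on signal level alone and known differences were placed in bright probe sets only. The simulation therefore cannot speak for dim genes or for spread particular to a gene. The GlycoGeneChip fit, the alternatives, the list summaries and the promoter search were not tested on simulated data. Alternatives changed the floor, the filter, the scaling, the model of the spread, the GeneChips fitted and the probe set, or left out 1 GeneChip at a time. The number of GeneChips limits the precision.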

Additional observations from a re-analysis of the deposited data

How the results depend on the processing

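Reg3b kept its direction in every alternative that used all 4 GeneChips (log2 difference 5.52 to 6.19) and its call except without a filter on low signals (adjusted p = 0.6630) and without an intensity trend (0.1706), both by limma. Ifit1 (2.63 to 3.05) and Slfn4 (2.43 to 2.85) also lost their calls there and under all 3 other scalings, and Slfn4 with the 6 colonized GeneChips (0.0899). With each GeneChip left out, Reg3b lay between 5.71 and 6.09, Ifit1 between 2.70 and 2.81 and Slfn4 between 2.49 and 2.62. Ang4 was called in 6 alternatives with all 4 GeneChips, Reg3g in 6 and Ces2b in 3, and each also in 2 of the 4 fits with 1 GeneChip left out. Dim genes depended on the floor: Reg3g reached 6.70, Bag6 -4.40 and Fam171a2 -5.46. The median of the Ifit family lay between 1.34 and 1.83 with all 4 GeneChips and between 1.39 and 1.97 with 1 left out, or 1.30 and 1.38 with the median added. That of the other interferon-stimulated genes lay between 0.64 and 1.08, 0.68 and 0.82, and 0.53 and 0.72.

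The number of probe sets called higher and lower, 4 and 0, became 262 and 476 with the floor at the 25th percentile, 8 and 2 with the median added in place of the floor, 5 and 1 with 1 added, 0 and 0 with no filter, 6 and 1 with the filter at the 75th percentile, 2 and 0 under scaling to a common median, to a common 75th percentile or by quantiles, 5 and 1 with the 6 colonized GeneChips, 8 and 2 with all 8, and 0 and 0 without the trend. By the bound, 23 higher and 11 lower became 467 and 879, 25 and 43, 300 and 687, 28 and 18, 42 and 51, 43 and 5, 37 and 7, 23 and 10, 24 and 12, 29 and 21, and 47 and 58 in the same order. With single GeneChips left out, calls ranged from 128 to 3011 higher and 7 to 6617 lower, and passes of the bound from 48 to 396 and 7 to 2690. An alternative chosen after seeing the data adds the median in place of the floor. With 9132, 9133, 9134 and 9135 left out in turn it called 393, 5, 8 and 1230 higher and 2, 0, 2 and 2808 lower, and 34, 21, 36 and 214 passed the bound as higher and 7, 7, 107 and 665 as lower. On the GlycoGeneChip, 2 higher and 0 lower became 24 and 9 with the lower floor, and ranged from 2 to 64 and 0 to 60 with 1 GeneChip left out. Reg3b was called in 2 of those 4 fits there by each probe set. Apart from the degenerate spread at the floor given above, the cause of these shifts was not tested.

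Of 67 probe sets named, 3 turned sign in some alternative. Ccl6 became -0.06 and Klk1 -0.16 as the mean over probe sets. Ada became 0.19 under median scaling and 0.11 under the common 75th percentile. With 1 GeneChip left out Ada ranged from -0.25 to 0.04 and Klk1 from -0.10 to 0.53, and with the median added 0.03 and 0.02 for Ada and -0.06 and -0.09 for Klk1 had the opposite sign. Of 47 lists, 23 had a median that turned sign in some alternative. No paired analysis was possible because the states share no replicate numbers. Signals under the floor limit what can be said of dim genes.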
